A study of Mus musculus with 35 samples.

Results

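A set of 7 genes that mark the indirect-pathway medium-spiny neurons of the striatum were sought by symbol in a table of striatal read counts, and 6 of the 7 (Drd2, Adora2a, Gpr6, Gprin3, Ptprm and Sp9) were found among the 32863 genes kept. The remaining member, Gpr52, is not analysed here because no row carries its symbol. The study asked whether deleting the histone deacetylase gene Hdac2 in medium-spiny neurons (MSNs) alters the striatal effects of HttQ111, a Huntington's disease knock-in allele that carries an expanded CAG repeat in the mouse Htt gene. RNA-seq libraries were made from the striata of 35 mice aged 21.71 to 23 weeks, 1 library per mouse. There were 8 Htt+/+ Hdac2 WT mice (5 males, 3 females) and 7 HttQ111/+ Hdac2 WT mice (4 males, 3 females, inherited CAG repeats of 110 to 140). The Hdac2 KO groups held 9 Htt+/+ mice (5 males, 4 females) and 11 HttQ111/+ mice (8 males, 3 females, CAG 110 to 144).

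Hdac2 KO mice were homozygous for a floxed Hdac2 allele and carried D9-Cre, a transgene in which a genomic fragment of Ppp1r1b (the gene for DARPP-32) drives Cre recombinase in MSNs from a few weeks after birth. Every mouse labelled Hdac2 WT lacked Cre. The labels describe these controls as Hdac2+/+, whereas the study's sample list gives floxed Hdac2 alleles without Cre for them, so the KO comparisons include the presence of the Cre transgene. All lines were kept by breeding to C57BL/6J, but the floxed line began on a mixed background. The study states that backcrossing to C57BL/6J was not complete before the lines were crossed. It names genetic heterogeneity among factors that may have lowered its power. Only the MSNs were targeted, so Hdac2 of every other striatal cell remained.

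MSNs of the indirect pathway project to the external globus pallidus and act to restrain movement, whereas those of the direct pathway project to the output nuclei of the basal ganglia and promote it. Dopamine dampens indirect-pathway neurons through the D2 receptor, which couples to inhibitory G proteins, while adenosine excites them through the A2A receptor, which raises cyclic AMP. The neurons also use the opioid peptide enkephalin, made from Penk, and are known to be affected early in Huntington's disease. Every library here is whole striatum, so a lower level of such a gene can come from fewer of these neurons or from less RNA in each. These cannot be told apart from the libraries. In tissue sections the study found no significant loss of DARPP-32-positive cells after the Hdac2 knockout. It describes neuronal loss in HttQ111 mice as very subtle or unseen and did not quantify it.

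The members fall into receptors, proteins at the membrane and a transcription factor. Drd2 (ENSMUSG00000032259, chr9:49340662-49407214 in GRCm38) encodes the D2 dopamine receptor. Adora2a (ENSMUSG00000020178, chr10:75316943-75334788) encodes the A2A adenosine receptor. Gpr6 (ENSMUSG00000046922, chr10:41069989-41072285) encodes an orphan receptor that raises cyclic AMP without a known ligand. Gprin3 (ENSMUSG00000045441, chr6:59352461-59426290) encodes a G protein-regulated inducer of neurite outgrowth. Ptprm (ENSMUSG00000033278, chr17:66666848-67354459) encodes a receptor-type tyrosine phosphatase that binds its own kind between cells. Sp9 (ENSMUSG00000068859, chr2:73271925-73284706) encodes a zinc finger transcription factor that indirect-pathway neurons need in order to develop. In the file's coordinates Sp9 overlaps Cir1 and Ptprm overlaps Gm22041, and whether the counting used strand is not stated, so reads of those pairs may be shared. The RefSeq locus of Gpr52 (chr1:160574717-160579704) lies within the interval of Rabgap1l (chr1:160219174-160792938), and Rabgap1l did not pass the test in the HttQ111 comparison without the knockout (log2 fold change -0.03 ± 0.04 SE, adjusted p = 0.866, edgeR), which says nothing of Gpr52 itself.

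Promoter sequences are shown for 2 receptor genes that turn out lower in HttQ111/+ striata (Drd2 and Gpr6) and for a member that does not (Ptprm), so that they can be set side by side. Each is the 250 bases before the RefSeq transcript start on GRCm38.p6, written 5′ to 3′ on the gene's own strand, and 5 of the 7 members had such a window. Capitals mark exact matches, on either strand, to the GC box GGGCGG (found in 32.7% of 32851 promoter windows), the cyclic AMP response element TGACGTCA (1.55%), the TATA box TATAAA (12.4%) and the E box CACGTG (6.02%). The windows lie at chr9:49340153-49340402 on the plus strand (Drd2), chr10:41072291-41072540 on the minus strand (Gpr6) and chr17:67354460-67354709 on the minus strand (Ptprm).
Drd2: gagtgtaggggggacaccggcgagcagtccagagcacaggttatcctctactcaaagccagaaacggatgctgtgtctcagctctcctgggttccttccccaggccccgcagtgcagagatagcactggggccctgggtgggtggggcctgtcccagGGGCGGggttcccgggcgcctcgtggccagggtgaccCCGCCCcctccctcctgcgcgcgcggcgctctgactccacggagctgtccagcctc
Gpr6: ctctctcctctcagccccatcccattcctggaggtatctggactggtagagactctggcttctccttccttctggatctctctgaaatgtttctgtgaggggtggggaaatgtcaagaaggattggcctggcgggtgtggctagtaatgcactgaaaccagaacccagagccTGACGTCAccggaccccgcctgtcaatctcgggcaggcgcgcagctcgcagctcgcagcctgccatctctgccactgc
Ptprm: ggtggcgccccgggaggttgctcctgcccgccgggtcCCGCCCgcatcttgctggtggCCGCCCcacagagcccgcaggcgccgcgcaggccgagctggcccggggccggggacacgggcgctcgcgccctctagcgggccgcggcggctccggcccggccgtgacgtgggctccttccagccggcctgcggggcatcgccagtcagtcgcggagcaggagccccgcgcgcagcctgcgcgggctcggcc

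The Drd2 window held GC boxes at 88 to 93 and 51 to 56 bases before the start, and the Gpr6 window held a cyclic AMP response element at 71 to 78 bases before it. The Ptprm window held GC boxes at 208 to 213 and 187 to 192 bases before the start. It was also the richest of the 5 in CpG dinucleotides, with 37 against 15 in Drd2, 9 in Gpr6, 16 in Gprin3 and 18 in Sp9. Of the windows not shown, that of Gprin3 held GC boxes at 65 to 70 and 39 to 44 bases before the start and an E box at 94 to 99. That of Sp9 held a GC box at 166 to 171. GC boxes thus occurred both in members lower in HttQ111/+ striata (Drd2 and Gprin3) and in others (Ptprm and Sp9). No window of the 5 held a TATA box. These are matches of letters, and no binding or methylation was measured here.

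Totals on genes ranged from 50970712 to 77867348 counts per library (median 57322618), and each member had at least 718 counts in every library (the lowest being Sp9). Gene-level Hdac2 of Htt+/+ mice averaged 102.5 ± 3.4 CPM (counts of a gene relative to the total of its library, scaled by the trimmed mean of M values, TMM; SD, n = 8) with intact Hdac2 and 94.4 ± 3.0 CPM (n = 9) after the knockout, a weak check, since only some exons are removed and only in MSNs. The first letter of the mouse ID (A, V or Z) and the RNA extraction date were treated as batches. Among HttQ111/+ mice, the 8 of ID series V carried CAG 131 to 144 and the 10 of series A or Z carried 110 to 118, so repeat length and series cannot be told apart in the carriers. Extraction dates followed Hdac2 genotype in all but 2 mice, so that date and knockout can hardly be separated. In all, 6 libraries held over 100 summed CPM of cortical projection neuron or choroid plexus markers. The highest was HttQ111/+ Hdac2 WT replicate 7, at 433 for the cortical markers. Fits without these libraries are given below for HttQ111/+ against Htt+/+ with intact Hdac2 and for the average effects. Ratios within ID series or date, the ratio of Drd2 to Drd1a and the correlations between genes keep them.

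Per kilobase of exon, Adora2a was the highest member in every group (135.8 ± 14.0 CPM per kb, SD, n = 8, in Htt+/+ Hdac2 WT), followed by Drd2 (92.1 ± 7.6) and Gpr6 (56.4 ± 3.4). Gprin3 came next at 9.10 ± 1.31, then Ptprm at 5.95 ± 0.49 and Sp9 at 3.71 ± 0.37 CPM per kb. All 6 were thus detected well above the 6-count minimum, with the 3 receptor genes far above the rest per length.

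**Figure D1:**
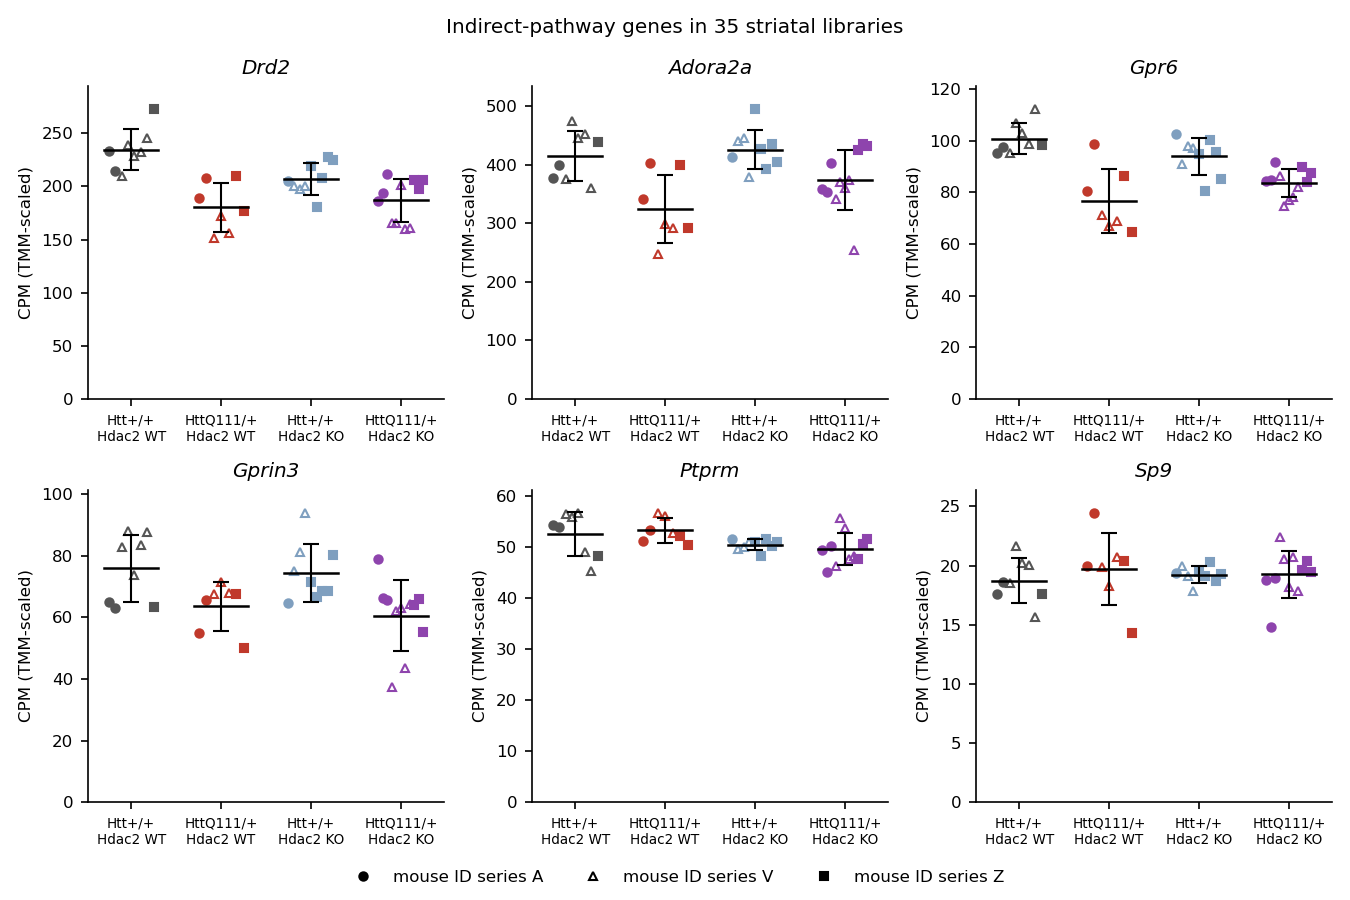
TMM-scaled CPM (y axis, starting at 0) of the 6 indirect-pathway genes in each of 35 libraries, by genotype group (x axis), with symbols for the mouse ID series and bars for the mean ± SD. Drd2 in HttQ111/+ Hdac2 WT mice of series V lies between 151.6 and 172.0 CPM, below every Htt+/+ library, while the ranges of Ptprm and Sp9 overlap in all 4 groups.

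In striata with intact Hdac2 (contrast 3, HttQ111/+ against Htt+/+), 1 of the 6 members, Gpr6, passed the adjusted threshold of 0.05, where 0.403% of the 17133 genes tested passed it in either direction and 0.222% passed it and were lower. At an unadjusted p under 0.05 there were 4 members (Drd2, Adora2a, Gpr6 and Gprin3), all lower, against 10.9% of genes in either direction. The median log2 fold change of the 6 was -0.20, and that of all genes was 0.00188. Adjusted p-values here and below are from edgeR's quasi-likelihood test with surrogate variables, corrected by Benjamini-Hochberg over all genes tested.

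Gpr6 ranged from 95.2 to 112.2 CPM (median 98.5) among Htt+/+ controls and from 64.5 to 98.5 CPM (median 71.2) in HttQ111/+ Hdac2 WT striata. The groups overlapped only through the highest carrier, since the other 6 HttQ111/+ libraries lay below every Htt+/+ library. Its fitted change was -0.33 ± 0.07 (log2, SE), or 20.6% lower, with adjusted p = 0.0159. Gpr6 was among the genes that the study picked out for changing both in these same samples and in a separate, earlier HttQ111/+ cohort. Its call here is thus not independent of the study's own, and that other cohort was not examined here. Without HttQ111/+ Hdac2 WT replicate 3 the call was lost (adjusted p = 0.0683, log2 fold change -0.29).

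Drd2 ran from 209.6 to 272.8 CPM (median 233.3) in Htt+/+ and from 151.6 to 210.2 CPM (median 176.7) in HttQ111/+ striata with intact Hdac2. A single carrier library reached the lowest Htt+/+ value. Its fitted change of -0.23 ± 0.05 narrowly missed the threshold (adjusted p = 0.0501), and without surrogate variables it was -0.38 with adjusted p = 0.0128. Leaving out HttQ111/+ Hdac2 WT replicate 2 or replicate 6 brought Drd2 (adjusted p = 0.0221 and 0.0157) and Adora2a (0.0298 and 0.0242) past the threshold, in fits that called 137 and 126 genes in all against 69. Neither passed when any of the other 13 libraries was left out, with adjusted p up to 0.171 for Drd2 and 0.312 for Adora2a.

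Adora2a spanned 360.7 to 475.7 CPM (median 418.8) in Htt+/+ and 247.4 to 402.3 CPM (median 299.2) in HttQ111/+ striata. The ranges overlapped, and the 5 lowest of the 15 libraries were carriers. The fitted change was -0.32 ± 0.08 with adjusted p = 0.0946. Gprin3 gave -0.17 ± 0.07 (adjusted p = 0.346), with values of 63.0 to 88.1 CPM in Htt+/+ and 49.9 to 71.4 CPM in HttQ111/+ striata.

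The other members did not pass the test. Ptprm averaged 52.5 ± 4.3 CPM (SD, n = 8) in Htt+/+ and 53.3 ± 2.4 CPM (n = 7) in HttQ111/+ striata, with a 95% interval of the log2 change from -0.06 to 0.09. Sp9 averaged 18.7 ± 1.9 and 19.7 ± 3.0 CPM, with an interval from -0.10 to 0.19. Both intervals leave out a fall of the size fitted for Gpr6.

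How many members passed in contrast 3 depended on the model. Drd2 and Gpr6 passed with no surrogate variables, and Adora2a joined them with extraction date or ID series as the covariate, or by DESeq2's Wald test. No member passed when the fit held only the 15 libraries compared (Gpr6 -0.28, adjusted p = 0.172) or when the 6 libraries rich in cortical or choroid plexus markers were left out (Gpr6 -0.30, adjusted p = 0.0983). In those fits 0 of 17133 and 16 of 17270 genes were called in all, against 69 of 17133 in the reported fit. In each of these fits Drd2, Adora2a and Gpr6 were below Htt+/+.

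**Figure D2:**
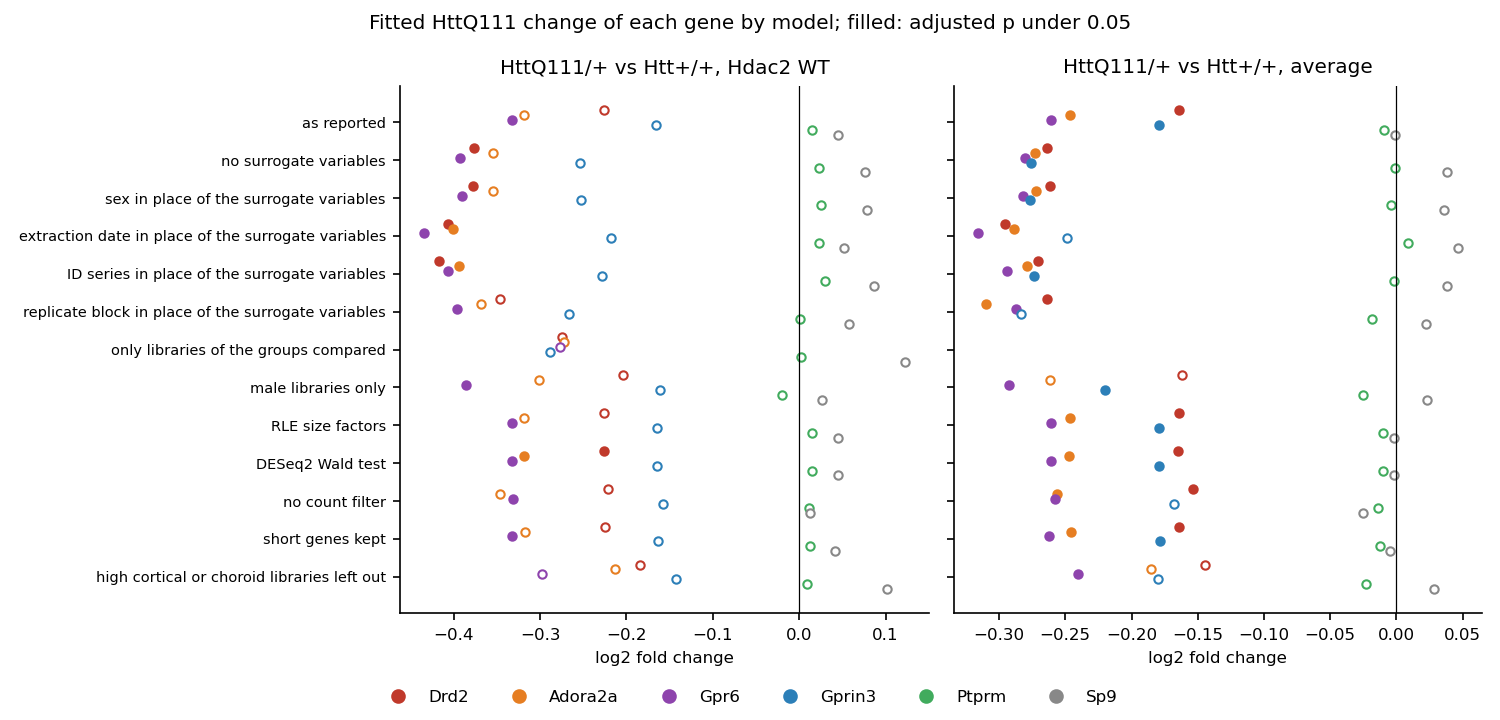
Fitted log2 fold change (x axis) of the 6 genes for HttQ111/+ against Htt+/+ in Hdac2 WT striata (left) and averaged over both Hdac2 backgrounds (right), under the reported model and each alternative (y axis), with filled points for adjusted p under 0.05. Drd2, Adora2a, Gpr6 and Gprin3 lie left of 0 in every fit drawn, whereas Ptprm and Sp9 lie near 0.

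Within mouse ID series V, the long-repeat carriers with intact Hdac2 had 151.6 to 172.0 CPM of Drd2 (n = 3) and their Htt+/+ counterparts 209.6 to 245.5 CPM (n = 5), a log2 ratio of means of -0.53. In series A and Z together the same ratio was -0.30, from 176.7 to 210.2 CPM (n = 4) against 215.0 to 272.8 CPM (n = 3). Gpr6 gave -0.58 in series V and -0.23 in series A and Z, and Adora2a -0.59 and -0.18. Both subsets thus had lower means in carriers for all 3 receptors, and the difference between the subsets was not tested. In series A and Z the lowest carrier for each receptor was replicate 7, the library highest in cortical markers. It had 176.7 CPM of Drd2, 291.6 of Adora2a and 64.5 of Gpr6. Series A alone (n = 2 and 2) gave -0.18 for Drd2 and -0.06 for Adora2a, and series Z held 1 Htt+/+ mouse. By extraction date, Drd2 gave -0.15, -0.51 and -0.56 on 24, 25 and 27 May, and Adora2a only -0.03 on 24 May against -0.49 and -0.69 on the later dates.

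In striata lacking Hdac2 in MSNs (contrast 4, HttQ111/+ against Htt+/+), none of the 6 members passed the adjusted threshold by edgeR or by DESeq2, and 0.00584% of 17110 genes did by edgeR. At an unadjusted p under 0.05, Drd2, Adora2a, Gpr6 and Gprin3 were again lower, 4 of 6 against 7.52% of all genes. Gpr6 and Gprin3 gave the smallest p-values, each with an adjusted p of 0.208. The median change of the members was -0.13.

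Gpr6 ran from 80.6 to 102.7 CPM (median 95.4) among Htt+/+ knockouts and from 74.8 to 91.7 CPM (median 84.3) in HttQ111/+ Hdac2 KO striata, with a fitted change of -0.19 ± 0.05. Gprin3 ran from 64.7 to 93.9 CPM (median 71.4) and from 37.5 to 78.8 CPM (median 64.1), with a change of -0.19 ± 0.05, or -0.30 without surrogate variables. Its 2 lowest libraries, at 37.5 and 43.5 CPM, were both carriers of series V. Drd2 (180.9 to 227.6 against 160.2 to 212.2 CPM) gave -0.10 ± 0.04, and Adora2a (379.7 to 495.2 against 255.2 to 435.6 CPM) gave -0.17 ± 0.07. All 4 pairs of groups overlapped. Within series V the log2 ratios of means were -0.22 for Drd2, -0.26 for Gpr6 and -0.62 for Gprin3, and in series A and Z they were -0.08, -0.10 and -0.08.

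The change in knockout striata was smaller than in striata with intact Hdac2 for Drd2, Adora2a and Gpr6 but not for Gprin3. That difference itself did not pass the test for any member, with no unadjusted p under 0.05 among the 6 (against 5.63% of 17346 genes) and none called by edgeR, which called 0.00577% of genes, or by DESeq2. For Drd2 the difference between the 2 HttQ111 changes was 0.13 (95% interval -0.01 to 0.27), for Gpr6 0.15 (-0.02 to 0.31) and for Adora2a 0.16 (-0.06 to 0.37). The intervals hold both no difference and one as large as the whole Drd2 change in contrast 3.

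Averaged over both Hdac2 backgrounds, with all 35 libraries, 4 of the 6 members fell in HttQ111/+ striata, where 1.27% of 17346 genes were called and 0.836% were called lower. Gpr6 changed by -0.26 ± 0.04 (adjusted p = 0.000912), Adora2a by -0.25 ± 0.05 (0.0152), Drd2 by -0.16 ± 0.03 (0.0125) and Gprin3 by -0.18 ± 0.04 (0.0288). In linear terms these were falls of 10.8% (Drd2) to 16.5% (Gpr6). Ptprm (-0.01 ± 0.02) and Sp9 (-0.00122 ± 0.04) did not pass, with 95% intervals within 0.1 of zero on the log2 scale. Without the 6 libraries rich in cortical or choroid plexus markers, where 54 genes were called in all against 220, the count was 1, Gpr6 (adjusted p = 0.0112), with Drd2 at -0.14 and 0.0626, Adora2a at -0.19 and 0.127, and Gprin3 at -0.18 and 0.127. Without surrogate variables Drd2 gave -0.26.

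**Figure D3:**
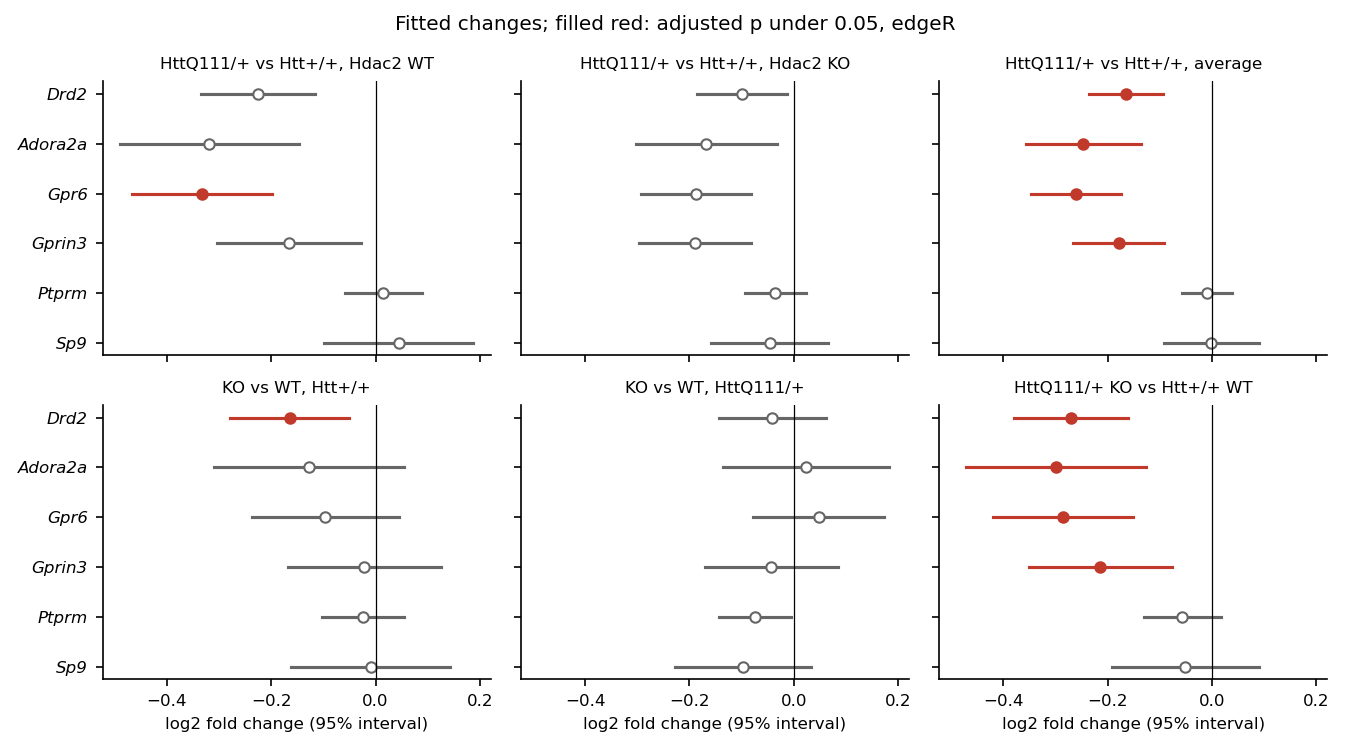
Fitted log2 fold change (x axis) with its 95% interval for each of the 6 genes (y axis) in 6 comparisons, with filled red points for adjusted p under 0.05 by edgeR. Averaged over Hdac2 backgrounds, Drd2, Adora2a, Gpr6 and Gprin3 fell, and the intervals of Ptprm and Sp9 span 0 in all panels but that of Ptprm in HttQ111/+ knockout against wild-type Hdac2.

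The effect of losing Hdac2 in MSNs was read in each Htt genotype. In Htt+/+ striata (contrast 1, KO against WT) 1 of 6 members, Drd2, was lower, where 17.8% of 17126 genes were called and 8.79% were called lower, so this share is near the background. Drd2 ranged from 180.9 to 227.6 CPM (median 204.7) in KO and from 209.6 to 272.8 CPM (median 233.3) in WT striata, with a change of -0.16 ± 0.06 and adjusted p = 0.0387. With extraction date as the covariate the change was -0.07 (adjusted p = 0.755), and the 1 knockout mouse extracted on the same day as WT mice, 27 May, had 225.0 CPM against a mean of 227.2 CPM in those 3. Of the 17 libraries, 7, when left out singly, took the adjusted p above 0.05, to between 0.0528 and 0.122: Htt+/+ Hdac2 WT replicates 2, 6, 8 and 9 and Htt+/+ Hdac2 KO replicates 1, 7 and 8.

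The remaining members did not pass in contrast 1. Adora2a gave -0.13 ± 0.09 with surrogate variables and 0.03 without, so its direction turned. Gpr6 gave -0.10 ± 0.07. Gprin3, Ptprm and Sp9 lay between -0.02 and -0.01.

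In HttQ111/+ striata (contrast 2, KO against WT) no member passed by edgeR or DESeq2, where 16.5% of 17169 genes did by edgeR. Ptprm alone had an unadjusted p under 0.05 (-0.07 ± 0.03, adjusted p = 0.143), and 28.1% of genes did. Drd2 (-0.04 ± 0.05), Adora2a (0.02 ± 0.08) and Gpr6 (0.05 ± 0.06) lay near 0, and without surrogate variables they were 0.05, 0.20 and 0.12, so that the direction of Drd2 turned. Averaged over both Htt genotypes no member passed either (25% of genes did), with Drd2 the nearest at -0.10 ± 0.04 (adjusted p = 0.0732) and the sole member with an unadjusted p under 0.05, as 35% of genes had.

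HttQ111/+ striata without MSN Hdac2 were also set against those of Htt+/+ Hdac2 WT mice (contrast 5). Here 4 of the 6 members were lower, where 21.2% of 17088 genes were called and 11% were called lower, at -0.27 ± 0.05 for Drd2 (adjusted p = 0.000365), -0.29 ± 0.07 for Gpr6 (0.0017), -0.30 ± 0.08 for Adora2a (0.00966) and -0.21 ± 0.07 for Gprin3 (0.0198). Gpr6 was the sole member whose groups did not overlap, at most 91.7 CPM against at least 95.2 CPM, as for 1.7% of genes in that direction. The Adora2a value depended on the model, at -0.16 without surrogate variables (adjusted p = 0.174). With extraction date as the covariate no member passed and 798 genes were called in all against 3627, and date nearly coincides with this comparison. The changes in that fit were -0.26 ± 0.10 for Drd2, -0.31 ± 0.10 for Gpr6, -0.18 ± 0.15 for Adora2a and -0.10 ± 0.17 for Gprin3. This comparison shares its control libraries with contrasts 1 and 3.

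The order of the group means was the same for Drd2 and Gpr6. Drd2 was highest in Htt+/+ Hdac2 WT (234.7 ± 19.4 CPM, SD, n = 8), then Htt+/+ Hdac2 KO (207.1 ± 14.9, n = 9), HttQ111/+ Hdac2 KO (186.8 ± 20.2, n = 11) and HttQ111/+ Hdac2 WT (180.5 ± 23.1, n = 7). Of its neighbours in that order only the first pair passed the test. For Gpr6 the means were 100.8 ± 6.0, 93.8 ± 7.2, 83.6 ± 5.3 and 76.7 ± 12.4 CPM, and no neighbouring pair passed. Adora2a was highest in Htt+/+ Hdac2 KO (426.1 ± 34.1 CPM), then Htt+/+ Hdac2 WT (415.8 ± 42.8), HttQ111/+ Hdac2 KO (373.7 ± 51.7) and HttQ111/+ Hdac2 WT (324.8 ± 58.7), with its middle pair alone passing. The coefficient of variation was higher in HttQ111/+ than Htt+/+ striata in both Hdac2 backgrounds for 3 members. With intact Hdac2 it was 12.8% against 8.28% (Drd2), 18.1% against 10.3% (Adora2a) and 15.4% against 10.1% (Sp9). After the knockout these were 10.8% against 7.18%, 13.8% against 8.00% and 10.1% against 3.63%. The direction differed between backgrounds for Gpr6 (16.2% against 5.98%, then 6.37% against 7.66%), Ptprm (4.48% against 8.25%, then 6.38% against 2.09%) and Gprin3 (12.4% against 14.4%, then 18.9% against 12.5%). The spread was not tested.

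Other genes of the indirect pathway followed in part. Of Penk, Six3, Grik3 and Sp8, chosen as further markers of the pathway, 1 (Penk) was lower in contrast 3, 0 in contrast 4 and 1 (Penk) in contrast 5 and in the average over Hdac2 backgrounds. In contrast 5 only 3 of the 4 were tested. Of all genes, 0.222% were called lower in contrast 3, 11% in contrast 5 and 0.836% in the average. Penk, the enkephalin precursor, fell from 1926 ± 113 CPM (SD, n = 8) to 1312 ± 304 CPM (n = 7) in striata with intact Hdac2. Its fitted change was -0.49 ± 0.10 (adjusted p = 0.0177). The study also picked out Penk, on these samples and in the separate cohort. Six3, a transcription factor of these neurons, gave 0.10 ± 0.04 and Grik3, a kainate receptor subunit, -0.02 ± 0.04, neither past the threshold. Sp8, a relative of Sp9, was at most 1.7 CPM in any Hdac2 WT library.

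The direct pathway supplied a comparison. Its list of 8 genes had 1 called lower in contrast 3, Drd1a, the D1 dopamine receptor gene Drd1 under its name in the table, and 0 in contrast 4. In contrast 3, 0.222% of all genes were called lower. Drd1a averaged 448.8 ± 23.5 CPM (SD, n = 8) among Htt+/+ and 359.2 ± 41.7 CPM (n = 7) in HttQ111/+ Hdac2 WT striata, a change of -0.22 ± 0.05 (adjusted p = 0.0439), about as large as that of Drd2. Tac1, the precursor of substance P, gave 0.03 ± 0.05 in contrast 3 but was higher in KO than WT striata of Htt+/+ mice (0.27 ± 0.05, adjusted p = 0.000171). Tac1 was named after its value was seen. The knockout comparison called 17.8% of 17126 genes and can hardly be separated from extraction date. With date as the covariate 822 genes were called in it, against 3056. The list's median change in contrast 3 was -0.04, against -0.20 for the indirect-pathway members. The contrast 3 calls of Penk and Drd1a were lost, among other settings, in the fit of the 15 libraries alone and without the 6 libraries rich in cortical or choroid plexus markers, and held in 9 and 8 of 12 alternatives.

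The ratio of Drd2 to Drd1a was taken within each library. It lay between 0.449 and 0.654 (median 0.509) for Htt+/+ mice with intact Hdac2, from 0.428 to 0.575 (0.513) in HttQ111/+ Hdac2 WT, from 0.457 to 0.607 (0.508) in Htt+/+ Hdac2 KO and from 0.438 to 0.546 (0.478) in HttQ111/+ Hdac2 KO striata. All 4 groups overlapped. The mean log2 ratio differed by -0.06 in contrast 3 (p = 0.487, exact two-sided permutation test, n = 7 and 8) and by -0.07 in contrast 4 (p = 0.208, exact permutation test, n = 11 and 9). The most marked of the 5 differences, -0.11 in contrast 5, had p = 0.116 by the exact permutation test (n = 11 and 8) and 0.519 after Benjamini-Hochberg adjustment over the 5. A fall of D2 relative to D1 receptor transcript was therefore not detectable with these numbers of mice.

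**Figure D4:**
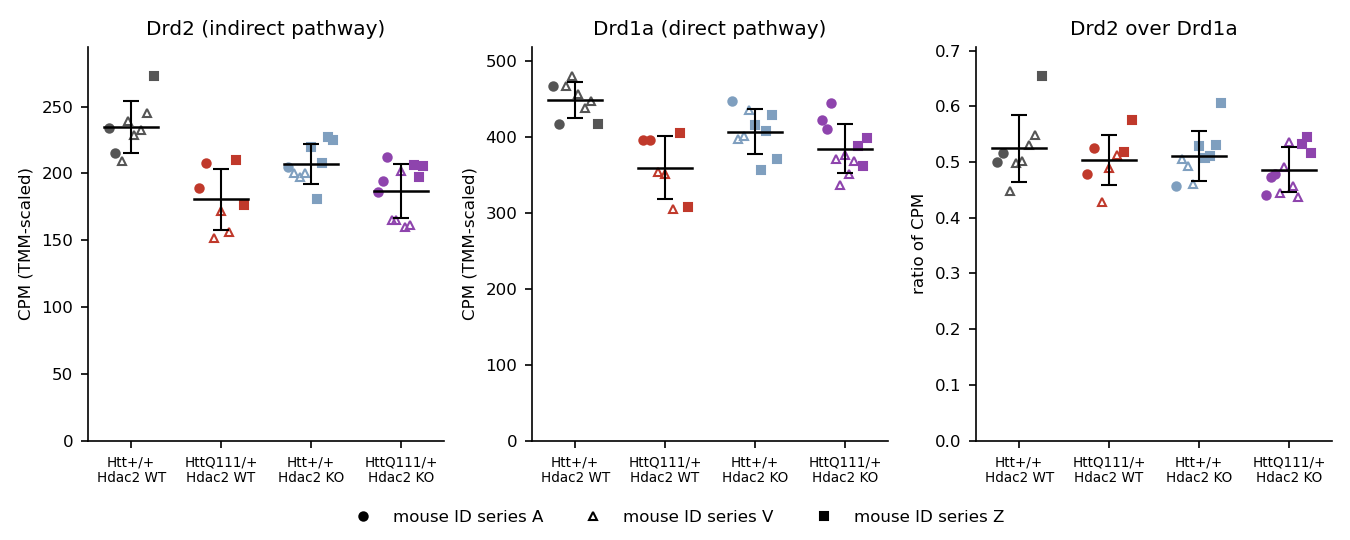
Drd2 and Drd1a in TMM-scaled CPM and their ratio (y axes, starting at 0) in each of 35 libraries by genotype group (x axis), with symbols for mouse ID series and bars for the mean ± SD. Both receptors are lower in HttQ111/+ Hdac2 WT than in Htt+/+ Hdac2 WT striata, and the ratio overlaps across all 4 groups.

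Most genes acting downstream of D2 and A2A receptors did not pass the test. Of 20 such genes, 4 were lower in contrast 3 and none higher, where 0.222% of all genes were called lower, and their median change was -0.05. These were Ppp1r1b (DARPP-32, an inhibitor of protein phosphatase once cyclic AMP-dependent kinase acts on it; -0.28 ± 0.05), Rgs9 (which speeds the turn-off of inhibitory G proteins; -0.26 ± 0.05), Pde10a and Pde1b (phosphodiesterases that break down cyclic nucleotides; -0.33 ± 0.07 and -0.26 ± 0.06). Adjusted p was 0.0121 for Ppp1r1b, 0.0177 for Rgs9, 0.0222 for Pde10a and 0.0463 for Pde1b. The calls held in 9 of 12 alternatives for Ppp1r1b, 8 for Rgs9, 8 for Pde10a and 5 for Pde1b, and all 4 were lost in the fit of the 15 libraries alone and without the 6 libraries rich in cortical or choroid plexus markers. In contrast 4 none of the 20 passed. Averaged over Hdac2 backgrounds 7 fell and 0 rose, where 0.836% of all genes were called lower. These genes are shared by direct- and indirect-pathway neurons. Ppp1r1b, Rgs9 and Pde10a were among those the study picked out on these samples and in the separate cohort. Their calls here are thus not independent of the study's own.

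A list of 10 genes common to all MSNs gave a like count, with 3 lower in contrast 3, 0 in contrast 4 and 6 in the average, and none higher. Over all genes, 0.222% were called lower in contrast 3 and 0.836% in the average. Their median change in contrast 3 was -0.18, close to the -0.20 of the indirect-pathway members. Of those 10, the 3 called in contrast 3 (Ppp1r1b, Rgs9 and Pde10a) are also in the signalling list. The 6 called in the average were those 3, Adcy5, which is in the signalling list too, Meis2 and Arpp21. Counts from the 2 lists are thus largely of the same genes.

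Markers of other cells were read beside these changes. In contrast 3, 1 of 5 astrocyte genes was lower, Aqp4 (-0.26 ± 0.05, adjusted p = 0.0122, past the threshold in 7 of 12 alternatives), and none of the tested genes of cholinergic interneurons (4), GABAergic interneurons (5), endothelium (5), microglia (5), oligodendrocytes (5), cortical projection neurons (5) or choroid plexus (4) passed, the last lists having median changes of -0.70 (cortical) and -0.64 (choroid plexus). Over all genes, 0.222% were called lower in that comparison. Summed astrocyte markers ran from 1081 to 1229 CPM in Htt+/+ and 994.4 to 1190 CPM in HttQ111/+ Hdac2 WT striata, and summed oligodendrocyte markers from 3574 to 5123 and from 3852 to 5330 CPM. Cortical markers ran from 10.2 to 61.8 CPM in Htt+/+ and from 5.6 to 433 CPM in HttQ111/+ striata, and choroid plexus markers from 17.2 to 210.6 and from 19.5 to 100.7 CPM. The summed indirect-pathway members ran from 838.1 to 987.1 CPM in Htt+/+ and from 614.3 to 852.0 CPM in HttQ111/+ striata. The part of other cells in the members' changes was not tested beyond the fits without the 6 libraries rich in cortical or choroid plexus markers.

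The members did not move together as 1 block between mice of a group. Deviations of log2 CPM from the group means were correlated over the 35 libraries for 21 pairs of the 6 members and Penk, with 100000 permutations within groups. Drd2 varied with Adora2a (Pearson r = 0.64, adjusted permutation p = 0.001; Spearman rho = 0.61, adjusted permutation p = 0.0027) and with Gpr6 (r = 0.56, adjusted permutation p = 0.0084; rho = 0.54, adjusted permutation p = 0.013). Without the 2 libraries farthest from the median of Drd2, r was 0.56 and 0.51, and within group and ID series r was 0.40 and 0.47. Penk varied with Drd2 (r = 0.75, rho = 0.71) and with Adora2a (r = 0.80, rho = 0.77). Unadjusted Pearson permutation p was 1e-05 for each, the smallest that these permutations can give. Within group and ID series those r were 0.48 and 0.75. Penk also varied with Gpr6 (r = 0.67, adjusted permutation p = 0.0048), with r of 0.37 within group and ID series. Adora2a and Gpr6 did not pass (r = 0.45, adjusted permutation p = 0.075), with r of 0.20 within group and ID series.

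Gprin3 and Ptprm varied with none of the others past the adjusted threshold, with r between -0.20 and 0.36. Sp9 varied with Adora2a by rank (rho = 0.51, adjusted permutation p = 0.015) but not by Pearson's r (0.44, adjusted permutation p = 0.086). Within group and ID series that r was 0.65. These libraries share their batches and dissection.

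**Figure D5:**
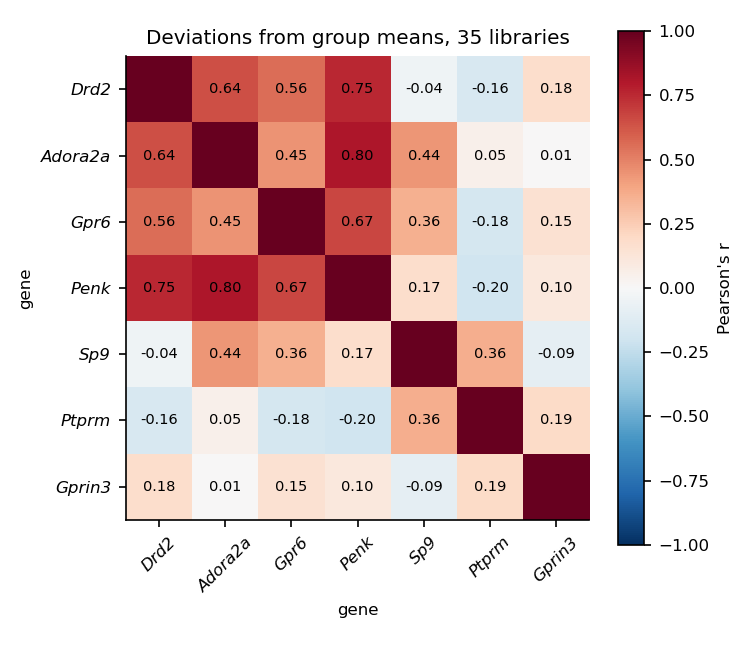
Pearson's r (colour scale from -1 to 1 and printed values) between pairs of genes over 35 libraries, after subtracting each genotype group's mean of log2 CPM. Pairs among Drd2, Adora2a, Gpr6 and Penk have r of 0.45 to 0.80, of which Adora2a with Gpr6 did not pass the adjusted threshold. Gprin3 has r from -0.09 to 0.19 with all others, and Ptprm has r from -0.20 to 0.05 with Drd2, Adora2a, Gpr6 and Penk.

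Over 13540 genes ranked by the same deviations, the 5 whose pattern was most like the mean of the members were Rgs9 (r = 0.82, rho = 0.77), Pde1b (r = 0.81, rho = 0.75), Upb1 (r = 0.78, rho = 0.83), Adcy5 (r = 0.78, rho = 0.72) and Meis2 (r = 0.75, rho = 0.72), all over 35 libraries. They were picked for being the highest of many, so r is given as a description with no test. Rgs9, Pde1b and Adcy5 (the main striatal adenylyl cyclase) belong to the signalling list above.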

How the data were processed

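Per the labels and the study's methods, poly(A) RNA was sequenced with a stranded kit, and the authors aligned reads to GRCm38 (Ensembl 75) with GSNAP. The deposited values are raw counts per gene of uniquely aligned reads (bedtools). Whether strand was used is not given in the sources used here. Mates appear to be counted singly, since more gene and library pairs hold a count of 2 (42954) than of 1 (24677), and intronic reads may be included, which touches levels per exon length. The authors had dropped 1 further library.

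From 39109 entries the fits dropped 92 ERCC spikes, 6152 genes of at most 250 nt in span and the 2 rRNA genes of the mitochondrion. Genes needed 6 counts in every library of at least 1 compared group. The edgeR 4.0.16 quasi-likelihood F test (TMM) was fitted to all 35 libraries with 9 surrogate variables from sva 3.50.0, per contrast, in R 4.3.3, with Benjamini-Hochberg adjustment over all genes at 0.05. Contrasts follow the study's numbering, and the interaction and averages share 1 fit. Fitting was tested on simulated counts. DESeq2 1.42.0 was an alternative. Libraries are separate mice. For list symbols with several rows the row of the higher total was used. No library pair agreed within sampling noise (chi-square per gene at least 7.30). Members and gene lists were chosen with earlier results of these data known. Named genes were all members, at most 4 per list by p in contrast 3 among called genes, and the 5 genes of most like pattern; Six3, Grik3, Sp8, Tac1 and Rabgap1l were added after their values were seen.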

Additional observations from a re-analysis of the deposited data

How the results depend on the processing

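The number of members past the threshold in contrast 3 (1) became 2 with no surrogate variables or with sex in their place, 3 with extraction date or ID series or by DESeq2 (419, 837 and 154 genes called in all, against 69), and 0 in the groups compared alone or without the 6 libraries rich in cortical or choroid plexus markers, a setting added after the data were seen. In contrast 1 it went from 1 to 0 with extraction date or males only (822 and 1970 genes, against 3056). In contrast 5 it went from 4 to 0 with extraction date and to 2 in males (798 and 2263 genes, against 3627). The average HttQ111 count went from 4 to 2 in males and to 1 without the 6 libraries (119 and 54 genes, against 220). The average Hdac2 KO count went from 0 to 1 with no surrogate variables or with sex (Ptprm), where 5509 and 5568 of 17346 genes were called. It was also 1 with no count filter or without the 6 libraries (Drd2), where 4044 of 26299 and 5087 of 17461 genes were called. The reported fit called 4341 of 17346, so 1 of 6 members is near or below these shares. The causes were not tested. Leaving out each library in turn gave 0 to 1 members in contrast 1 and 0 to 3 in contrast 3, and was not run for contrast 5, the interaction or the averages.

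Replicate numbers did not pair the mice, since same-numbered libraries of different groups correlated from -0.21 to 0.29 (median 0.04). The replicate block gave 1 member in contrast 3 (Gpr6, adjusted p = 0.038), where 13 of 17133 genes were called against 69. It gave 3 in the average HttQ111 effect (365 of 17346 genes against 220), where Gprin3 was lost (-0.28, adjusted p = 0.0712). In contrast 5 it also gave 3 (3962 of 17088 genes against 3627), where Adora2a was lost (-0.21, adjusted p = 0.0655). The block moved no member count by over 1.5 times.

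The Drd2 to Drd1 log2 ratio of contrast 2 reversed to 0.0334 in males. Series Z alone, with no test, gave -0.29, -0.26 and -0.30 in contrasts 1, 3 and 5, each resting on 1 Htt+/+ Hdac2 WT mouse. Leaving out libraries in turn gave -0.0669 to 0.0112 in contrast 1 (reversed without Htt+/+ Hdac2 WT replicate 9) and -0.137 to -0.0596 in contrast 5 (unadjusted permutation p = 0.0422 without Htt+/+ Hdac2 WT replicate 4). Of the called changes of single members under these settings, 94 kept their side of the threshold, 22 lost it and none reversed. With 7 to 11 mice per group and member coefficients of variation up to 18.9%, small changes could be missed.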
